A study of Mus musculus with 23 samples.

Results

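The 37 genes described here are the mouse ZBTB family members that carry a Zbtb symbol with a number, apart from Zbtb7a, Zbtb7b and Zbtb7c, measured in the orbitofrontal cortex. They were chosen by symbol from the table of normalized counts, with a value of 10 or more in at least 5 of 23 libraries. All 37 symbols that fit the name passed this threshold, in 23 of 23 libraries each, and 0 lay under it. They are 37 of 27178 genes in the table and 37 of the 16385 genes that passed the same threshold and were tested. The members nearest the threshold were Zbtb32 and Zbtb42, with means of 31.8 and 37.6 over all libraries.

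ZBTB proteins join a BTB domain, through which they dimerize and bind corepressors such as NCoR, SMRT and Sin3a or the ubiquitin ligase scaffold Cul3, to C-terminal zinc fingers that bind DNA. Many act as repressors. In brain the family is best known for Zbtb18 and Zbtb20, which act in the development of cortical neurons, hippocampus and astrocytes, and in other tissues for the control of blood and immune cell fates.

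RNA-seq of polyadenylated RNA was made from virally infected orbitofrontal tissue of wild-type male C57BL/6J mice aged 8 weeks. On day 0 the mice received AAV6 with the promoter of the astrocyte gene Gfap driving either GFP or ZBTB7A, and on day 21 they went through subthreshold social defeat stress or a control procedure. All groups then went through the behavioural tests of day 22 to day 27, and tissue was taken on day 28. Of the 4 groups, GFP stress had 8 libraries, and GFP control, ZBTB7A control and ZBTB7A stress had 5 each. The tissue was not sorted, so other cells than the astrocytes aimed at by the promoter contributed RNA. Libraries are named by the number in their title, which runs through the groups 3 times, in runs of 8, 7 and 8 libraries. ZBTB7A control 6 in run 1, ZBTB7A stress 17 in run 2 and GFP control 19 in run 3 were alone in their group. A difference within such a run rests on that library. The labels do not state that each library is a separate mouse, so p-values measure the spread between these samples.

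Between 12.5 M and 51.9 M reads were counted per library (median 22.7 M). All 9 lists of cell type markers examined were present, with 0 listed genes at 0 in every library, including 12 genes of striatal medium spiny neurons and 12 of choroid plexus and ependyma (11 of them tested), cell types from outside the cortex. The summed normalized counts of the striatal list ranged from 8767 to 61032 in GFP stress and from 28509 to 76284 in the matching controls. Under ZBTB7A it ranged from 40213 to 105136 with stress and from 17320 to 159087 without. The 10 homeostatic astrocyte genes summed to between 81139 and 102063 in all 23 libraries. Other glial lists varied more: the 12 reactive astrocyte genes ran from 5380 to 41052 and the 10 microglia genes from 10280 to 21556. The targeted gene Zbtb7a had a normalized count of 3744 ± 173 (SD) in ZBTB7A stress and 3934 ± 251 in GFP stress, and of 3716 ± 247 and 3834 ± 629 in their controls. It was thus not higher in libraries labelled with the ZBTB7A virus. Whether transcripts of the vector count towards this symbol is not given in the sources used here, so the virus of each library is known from its label alone.

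The promoters of 33 members were found in the RefSeq table (build GRCm38.p6), with 45 start sites. Members' promoters were rich in G and C: the 250 bases before a start held a median of 64.4% G or C and 20 CpG, against 52.4% and 6 CpG in all 32851 promoters of the table. The GC box, GGGCGG on either strand, was present in 57.8% of the members' promoters and in 32.7% of all promoters. These shares count start sites, so a gene with several starts counts more than once. All promoters were not limited to genes tested in this tissue, while every member was. The first 150 bases before a start are printed for 3 members on whose values the later comparisons turn. The Zbtb18 window (chr1:177442201-177442350, plus strand) has ACATCTG in capitals, the core bound by ZBTB18 itself, which begins 130 bases before the start. The Zbtb12 window (chr17:34894409-34894558, plus strand) has a GC box in capitals on the minus strand, and the Zbtb20 window (chr16:43247134-43247283, plus strand) has AGAACA in capitals, the reverse complement of the glucocorticoid receptor half-site TGTTCT. None of the 3 windows holds annotated exon bases.
Zbtb18: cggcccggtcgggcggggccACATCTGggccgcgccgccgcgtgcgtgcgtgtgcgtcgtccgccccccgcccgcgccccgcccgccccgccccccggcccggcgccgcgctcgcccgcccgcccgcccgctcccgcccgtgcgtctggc
Zbtb12: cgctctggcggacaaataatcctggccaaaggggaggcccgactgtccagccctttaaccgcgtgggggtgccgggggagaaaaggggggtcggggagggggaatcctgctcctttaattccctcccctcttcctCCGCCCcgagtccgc
Zbtb20: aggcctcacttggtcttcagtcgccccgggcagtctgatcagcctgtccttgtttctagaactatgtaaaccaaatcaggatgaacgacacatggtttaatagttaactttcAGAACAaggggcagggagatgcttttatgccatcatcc

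Zbtb18 had 5 listed start sites, and the window taken is that of the first listed. The 250 bases before this start were 84.0% G or C with 47 CpG, a richer composition than in 99.7% of all promoters. They held several GC boxes beside the ACATCTG core. The corresponding window of Zbtb20 was 44.8% G or C with 3 CpG, and that of Zbtb12 67.6% with 22 CpG. Zbtb20 and Zbtb12 had 1 listed start each, and both starts lie inside the annotated gene. In GENCODE M21 the genes span chr16:42875881-43642602 and chr17:34879483-34896867, both on the plus strand. These 2 windows are thus not those before the first annotated base of the gene, whose composition was not examined. ACATCTG, searched on both strands and itself containing the E-box form CANNTG, occurred in 3.71% of all promoters and, among members, in those of Zbtb18 and Zbtb46. TCCTGCNA, a site bound by Kaiso (Zbtb33), occurred in 4.03% of all promoters and in those of Zbtb18 and Zbtb37. TGTTCT occurred in 16.1% of all promoters and in those of 5 members, Zbtb20, Zbtb33, Zbtb46, Zbtb5 and Zbtb6. These matches describe letters in the windows only. Promoters of Zbtb10, Zbtb16, Zbtb40 and Zbtb48 were not used here.

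Family members differed widely in level. Per kilobase of annotated exon (GENCODE M21), Zbtb18, a repressor that acts in the development of cortical neurons, had the highest level of the members. It had 952 ± 186 normalized counts per kb (mean ± SD over 23 libraries). The methyl-CpG reader Zbtb4 followed with 605 ± 44.9 and Zbtb22 with 462 ± 50.3. The Myc partner Zbtb17 (Miz-1) had 231 ± 21.2, Zbtb45, known from glial differentiation, 175 ± 23.9, and Zbtb16 (PLZF) 172 ± 45.8 normalized counts per kb. At the low end were Zbtb42, a relative of Zbtb18 known from muscle, with 10.8 ± 4.05, Zbtb37 with 7.16 and Zbtb20 with 7.05 ± 2.72. The low rank of Zbtb20 uses 30.7 kb of annotated exon, the longest of the members, so its place depends on how much of that length the transcripts in this tissue hold. Neighbours in this order lay within 1 SD of each other in many places, as with Zbtb45, Zbtb16 and Zbtb11 (mean 169).

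**Figure D1:**
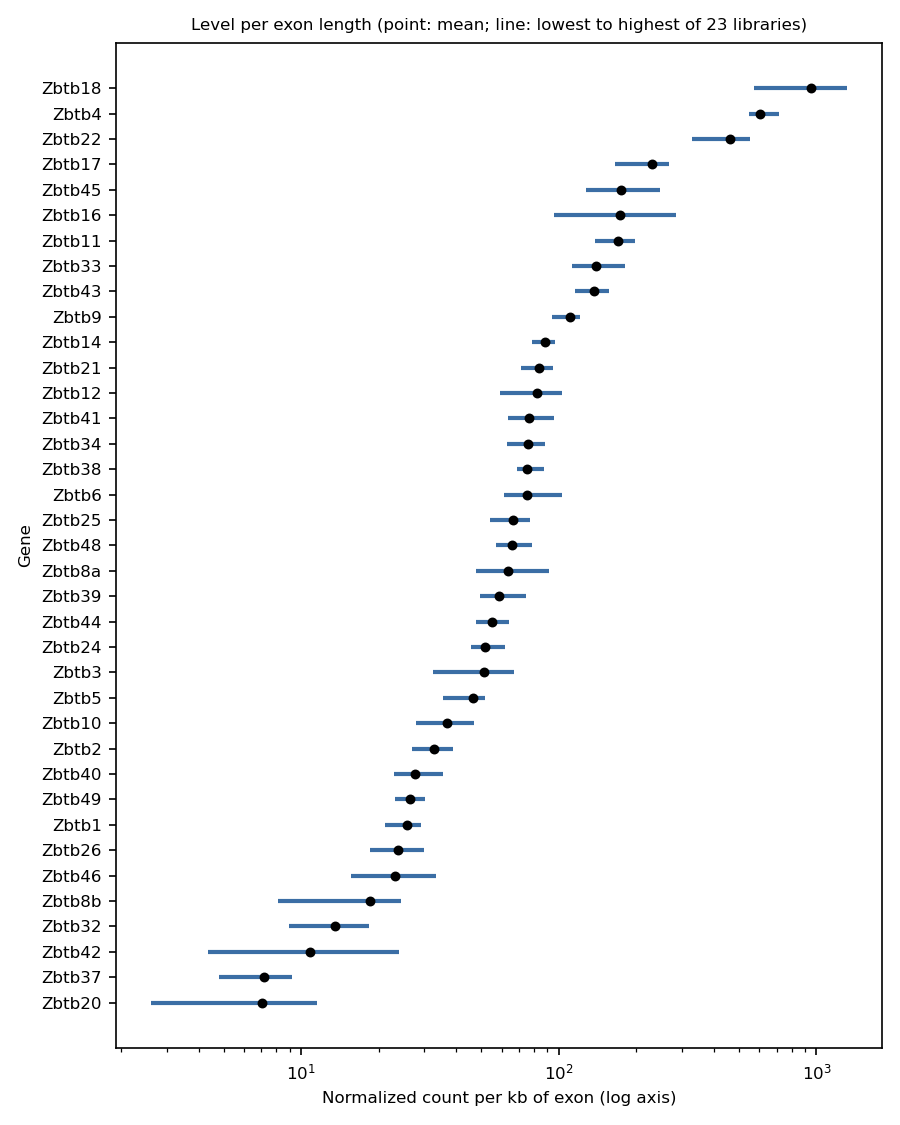
Level of each of the 37 members in normalized counts per kb of exon on a log axis, with points for the mean and lines from the lowest to the highest of 23 libraries. Zbtb18, Zbtb4 and Zbtb22 have the highest means (952, 605 and 462 per kb), and Zbtb20 and Zbtb37 the lowest (7.05 and 7.16).

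Most members were steady between libraries. The ratio of the highest to the lowest library had a median of 1.55 over the 37 members and was under 2 for 29 of them. Zbtb14, described as a repressor of Myc, was the steadiest, from 369 to 453 normalized counts, a ratio of 1.23. Zbtb38 (1.27), Zbtb9 (1.28) and Zbtb4 (1.30) were almost as steady. The SD of the log2 values over all libraries had a median of 0.142 for members and 0.193 for all 16385 genes, and within groups it was 0.142 and 0.190. The 3 members with the widest ratios were Zbtb42 (5.56), Zbtb20 (4.40) and Zbtb8b (3.03), followed by Zbtb16 (2.99). Zbtb42 ranged from 15.1 in GFP stress 3 to 83.9 in ZBTB7A control 6.

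**Figure D2:**
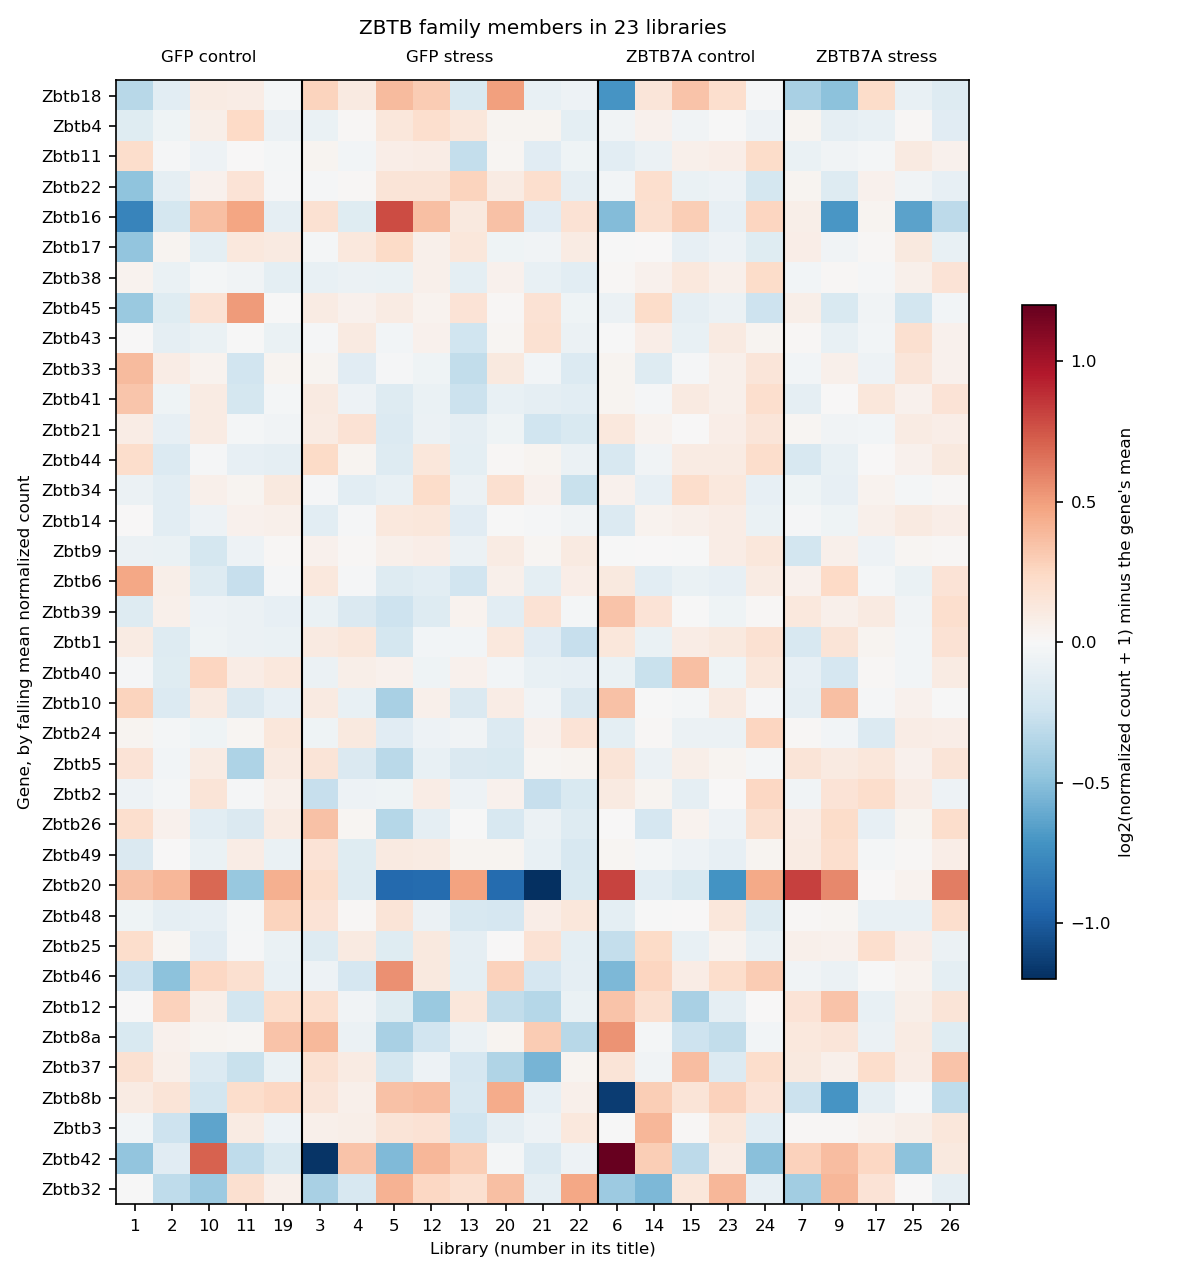
Each member's log2(normalized count + 1) minus its mean over 23 libraries, with genes ordered by mean and libraries by group and title number. Zbtb20, Zbtb16, Zbtb8b and Zbtb42 show the strongest colours, and the other members vary less between libraries. Zbtb32 and Zbtb18 come next, with an SD of the log2 values of 0.314 and 0.294.

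No member passed the test in any comparison of groups. With limma and Benjamini-Hochberg adjustment over all 16385 genes, 0 of 37 members had an adjusted p under 0.05 in each of 6 contrasts, as did 0% of all genes in each. The edgeR and DESeq2 tests on recovered reads also called 0 members in each contrast. Over all genes edgeR called 0 in each, and DESeq2 called 46 for the virus with stress, 39 for stress under GFP, 7 for the virus averaged over stress, 3 for the interaction, 1 for stress under ZBTB7A and 0 for the virus without stress. Values were compared on the log2(normalized count + 1) scale, which understates changes of low genes. The groups overlapped for every member in all 4 comparisons of 2 groups. The share over all genes was not computed, so this overlap is not a result about the members. The comparisons share groups (each group enters several), so agreement between them is not independent.

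The ZBTB7A virus without stress was compared with GFP without stress. In this comparison 3 of 37 members (8.11%) had an unadjusted limma p under 0.05, all higher under ZBTB7A, against 1.73% of all genes. Differences were small: 36 of 37 members lay within 0.25 of 0 on the log2 scale, with a median of 0.03 for members and -0.01 for all genes, and 62.2% of members and 44.7% of all genes lay above 0. The member of smallest p was Zbtb38, a zinc finger reader of methylated CpG. Its normalized count was 906, 837, 870, 859 and 814 in the GFP control libraries and 894, 916, 965, 917 and 1026 in the ZBTB7A control libraries. All 5 ZBTB7A control values lay above the GFP control median, and 1 GFP control library overlapped them. The log2 difference was 0.14 ± 0.05 (SE), with a limma adjusted p of 0.9999 and an exact two-sided permutation p of 0.0159.

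Zbtb9, Zbtb3 and Zbtb39 followed. Zbtb9 was 363 ± 19.7 in GFP control and 396 ± 17.9 in ZBTB7A control (SD, n = 5 each), a log2 difference of 0.12 ± 0.06 with an exact permutation p of 0.0317 and a limma adjusted p of 0.9999. Of the exon bases of Zbtb9, 84.4% are shared with Ggnbp1 on the same strand in GENCODE M21, so reads of the 2 genes may not be told apart. Zbtb3 was 91.2 ± 16.7 and 109 ± 15.7, and Zbtb39 334 ± 18.4 and 373 ± 43.6. Their log2 differences of 0.26 ± 0.12 and 0.16 ± 0.08 did not pass either (limma adjusted p = 0.9999 for both). The exact permutation p was 0.135 for Zbtb3 and 0.0794 for Zbtb39. For Zbtb3 the GFP control group included a low library, GFP control 10 with 65.3, and without it the difference was 0.14. Without ZBTB7A control 6 the Zbtb39 difference was 0.094. This library is the only one of the groups compared here among the 5 libraries farthest in striatal marker level. The level of choroid plexus markers also differed between these groups, at 1.39 ± 1.12 in GFP control and -0.06 ± 0.95 in ZBTB7A control, and Zbtb9 and Zbtb3 ran opposite to it over 23 libraries (r = -0.578 and -0.581). Its part in these differences was not tested.

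The virus comparison among stressed mice held the widest differences. Here 8 of 37 members (21.6%) had an unadjusted p under 0.05, 5 higher and 3 lower in ZBTB7A stress, against 16.1% of all genes, and the smallest adjusted p was 0.204. The median log2 difference was 0.04 for members and 0.01 for all genes, and 31 of 37 members lay within 0.25 of 0. The higher members were Zbtb20, Zbtb5, Zbtb37, Zbtb39 and Zbtb2, and the lower ones Zbtb16, Zbtb8b and Zbtb18.

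Zbtb20, which acts in hippocampal development and in the formation of astrocytes, had the widest difference. Its normalized count in GFP stress ranged from 80.2 to 279 with a median of 140, and in ZBTB7A stress it was 353, 298, 200, 205 and 305. All 5 ZBTB7A stress libraries exceeded the GFP stress median, while GFP stress 13 and GFP stress 3, with 279 and 231, lay among them. The low end was made by 4 GFP stress libraries, 21, 5, 12 and 20, between 80.2 and 105. The log2 difference was 0.88 ± 0.29, 1.84-fold with a 95% interval of 1.21 to 2.79, with a limma adjusted p of 0.204 and an exact permutation p of 0.0186. Within the 3 number runs it was 0.99, 0.22 and 1.13.

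The same 4 GFP stress libraries had the lowest levels of the striatal list. Such a level is the average over the listed genes of the log2 value, each gene centred on its own mean over libraries. In these 4 libraries it was -2.36 to -1.97. The group means of this level were -0.91 ± 1.39 in GFP stress and 0.94 ± 0.59 in ZBTB7A stress (SD), and those of the myelin list -0.38 ± 0.67 and 0.26 ± 0.34. The Zbtb20 difference was 0.19 with the striatal level as a covariate (limma adjusted p = 0.998). Without the 5 libraries farthest in that level, the 4 named and ZBTB7A control 6, it was 0.32 (adjusted p = 0.867). In bulk tissue fewer cells of a type and less RNA per cell cannot be told apart.

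Zbtb16 (PLZF), a regulator of innate-like lymphocytes and germline stem cells that glucocorticoids induce in many tissues, differed the other way. In GFP stress its normalized count ranged from 790 to 1512 with a median of 994. In ZBTB7A stress it was 921, 539, 900, 560 and 706, so that 0 of 5 libraries exceeded the GFP stress median. The groups still overlapped, because GFP stress 4 and GFP stress 21 lay at 790 and 797. Zbtb16 had a log2 difference of -0.52 ± 0.20, with a limma adjusted p of 0.247 and an exact permutation p of 0.0171, and within the number runs it was -0.59, -0.20 and -0.61. It was -0.29 with the striatal level as a covariate (adjusted p = 0.998).

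Zbtb18, the most abundant member, lay at 5046 to 8079 normalized counts with a median of 6540 in GFP stress. In ZBTB7A stress it was 4387, 4078, 6687, 5380 and 5164, with 1 of 5 libraries above that median. Its log2 difference was -0.33 ± 0.15 (limma adjusted p = 0.297), and it was -0.69, 0.16 and -0.24 within the number runs. The sign was thus not the same in each, but on the ZBTB7A side the 0.16 rests on ZBTB7A stress 17 alone. Zbtb8b was lower as well, at 102 to 159 with a median of 126 in GFP stress against 97.2, 70.9, 108, 116 and 94.3 in ZBTB7A stress. Its log2 difference was -0.42 ± 0.19 (limma adjusted p = 0.286). The differences of Zbtb18 and Zbtb8b with this covariate were -0.0013 and -0.08, with limma adjusted p of 0.999 and 0.998.

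**Figure D3:**
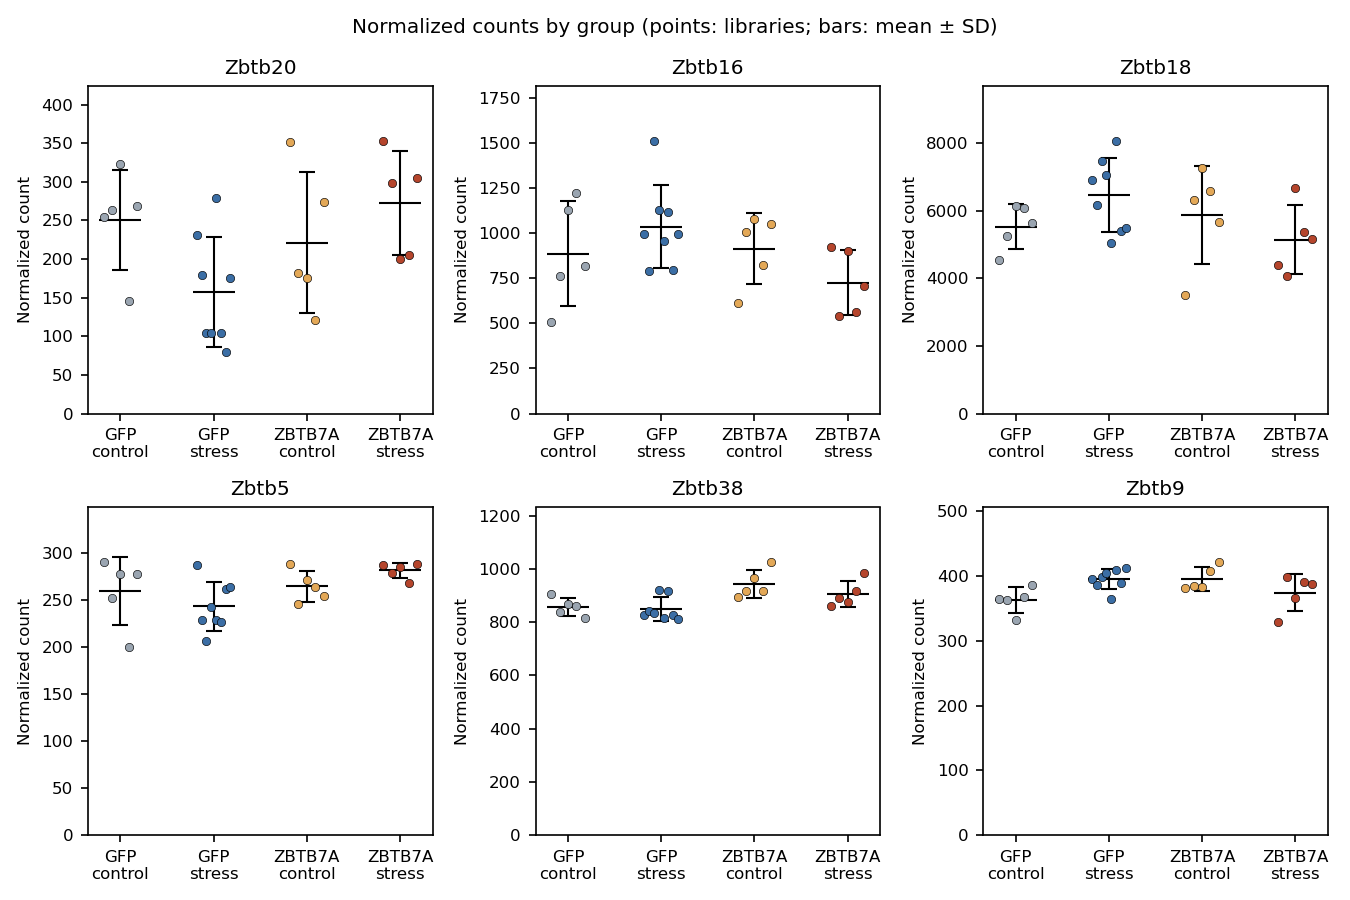
Normalized counts of 6 members in each group, with a point for each library and bars for the mean and SD. The 4 lowest Zbtb20 points of GFP stress lie near 100, and Zbtb16 and Zbtb18 overlap between all groups.

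Zbtb5, which represses the p53 target p21, was narrowly spread in ZBTB7A stress, at 288, 278, 285, 268 and 288. In GFP stress it ranged from 207 to 287 with a median of 236. All 5 ZBTB7A stress libraries exceeded that median and 1 GFP stress library lay among them. On the log2 scale they differed by 0.22 ± 0.08, with a limma adjusted p of 0.247 and an exact permutation p of 0.0155. Zbtb37 was 123 ± 20.5 in GFP stress (n = 8) and 150 ± 12.3 in ZBTB7A stress (n = 5), a log2 difference of 0.30 ± 0.12 (limma adjusted p = 0.2504). Of the exon bases of Zbtb37, 15.6% overlap Serpinc1 on the opposite strand, and the strand setting of the counting is not given in the sources used here. Zbtb39 and Zbtb2, a gene tied to the p53 pathway, differed by 0.16 ± 0.07 and 0.17 ± 0.08 (limma adjusted p = 0.284 and 0.286). With the striatal level as a covariate these were 0.076 and 0.21, and the Zbtb37 difference 0.19 (limma adjusted p = 0.998 for each). Without the 5 far libraries Zbtb37 differed by 0.14.

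Averaged over stress, 3 of 37 members (8.11%) had an unadjusted p under 0.05 for the virus, all higher under ZBTB7A, against 6.07% of all genes. They were Zbtb38 (log2 difference 0.12 ± 0.03), Zbtb39 (0.16 ± 0.05) and Zbtb37 (0.23 ± 0.09), each with a limma adjusted p of 0.767. The median was 0.03 for members and 0.00 for all genes. For Zbtb38 the difference was 0.14 with the striatal level as a covariate and 0.15 without the 5 far libraries, so it was as large there.

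Stress was compared with control among GFP mice. Here 2 of 37 members (5.41%) had an unadjusted p under 0.05, against 11.2% of all genes. Zbtb20 was the member of smallest p. It was 255, 264, 323, 145 and 268 in GFP control, against the 80.2 to 279 of GFP stress, where 1 of 8 libraries exceeded the GFP control median. The groups overlapped, with GFP control 11 low at 145 and GFP stress 13 and 3 high at 279 and 231. The log2 difference was -0.75 ± 0.29, with a limma adjusted p of 0.383, an exact permutation p of 0.0482 and values of -0.67, -0.34 and -1.23 in the number runs. It was -0.25 with the striatal level as a covariate and -0.19 without the 5 far libraries.

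Zbtb9 had the other small p. It was 365, 363, 332, 367 and 387 in GFP control and 364 to 412 with a median of 398 in GFP stress, where 7 of 8 libraries exceeded the control median. The log2 difference was 0.12 ± 0.05, with a limma adjusted p of 0.410 and an exact permutation p of 0.00777. Zbtb22 and Zbtb3 came next, with log2 differences of 0.17 ± 0.09 and 0.19 ± 0.11 (limma adjusted p = 0.455 and 0.507). Zbtb22 was 1176 ± 188 in GFP control (n = 5) and 1316 ± 111 in GFP stress (n = 8). Without GFP control 1 its difference was 0.072, and without GFP control 10 that of Zbtb3 was 0.081. The choroid plexus level was 1.39 ± 1.12 in GFP control and -0.85 ± 0.67 in GFP stress, and Zbtb9, Zbtb22 and Zbtb3 ran opposite to it over 23 libraries (r = -0.578, -0.532 and -0.581). For Zbtb22 the rho was -0.343 and did not pass (adjusted permutation p = 0.227). Its r was -0.375 without the 2 libraries farthest from the median level. The part of the choroid plexus level in the differences of Zbtb9, Zbtb22 and Zbtb3 was not tested.

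Among ZBTB7A mice, 0 of 37 members had an unadjusted p under 0.05 for stress, against 1.66% of all genes. The 4 members of smallest p were Zbtb16 (log2 difference -0.34 ± 0.22), Zbtb9 (-0.08 ± 0.06), Zbtb49 (0.10 ± 0.07) and Zbtb20 (0.36 ± 0.32), each with a limma adjusted p of 0.9997. Without ZBTB7A stress 7 the Zbtb9 difference was -0.035. The Zbtb20 difference was 0.17 without ZBTB7A control 23, 0.55 without ZBTB7A control 6 and 0.052 with the striatal covariate. Zbtb16 was 612, 1005, 1075, 821 and 1051 in ZBTB7A control. It thus had a low library in that group too, ZBTB7A control 6, which had the highest striatal level of all 23 libraries.

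For the interaction, the difference between the 2 stress effects, 2 of 37 members (5.41%) had an unadjusted p under 0.05, against 7.42% of all genes. Zbtb9 had an interaction of -0.21 ± 0.08 and Zbtb20 one of 1.11 ± 0.43 on the log2 scale, each with a limma adjusted p of 0.668. Zbtb16 (-0.60 ± 0.30, adjusted p = 0.670) and Zbtb12 (0.32 ± 0.19, adjusted p = 0.697) followed. So the stress effects under the 2 viruses were not shown to differ for any member. The Zbtb20 interaction with the striatal level as a covariate was 0.31, that of Zbtb16 was -0.33 and that of Zbtb12 reversed to -0.035.

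**Figure D4:**
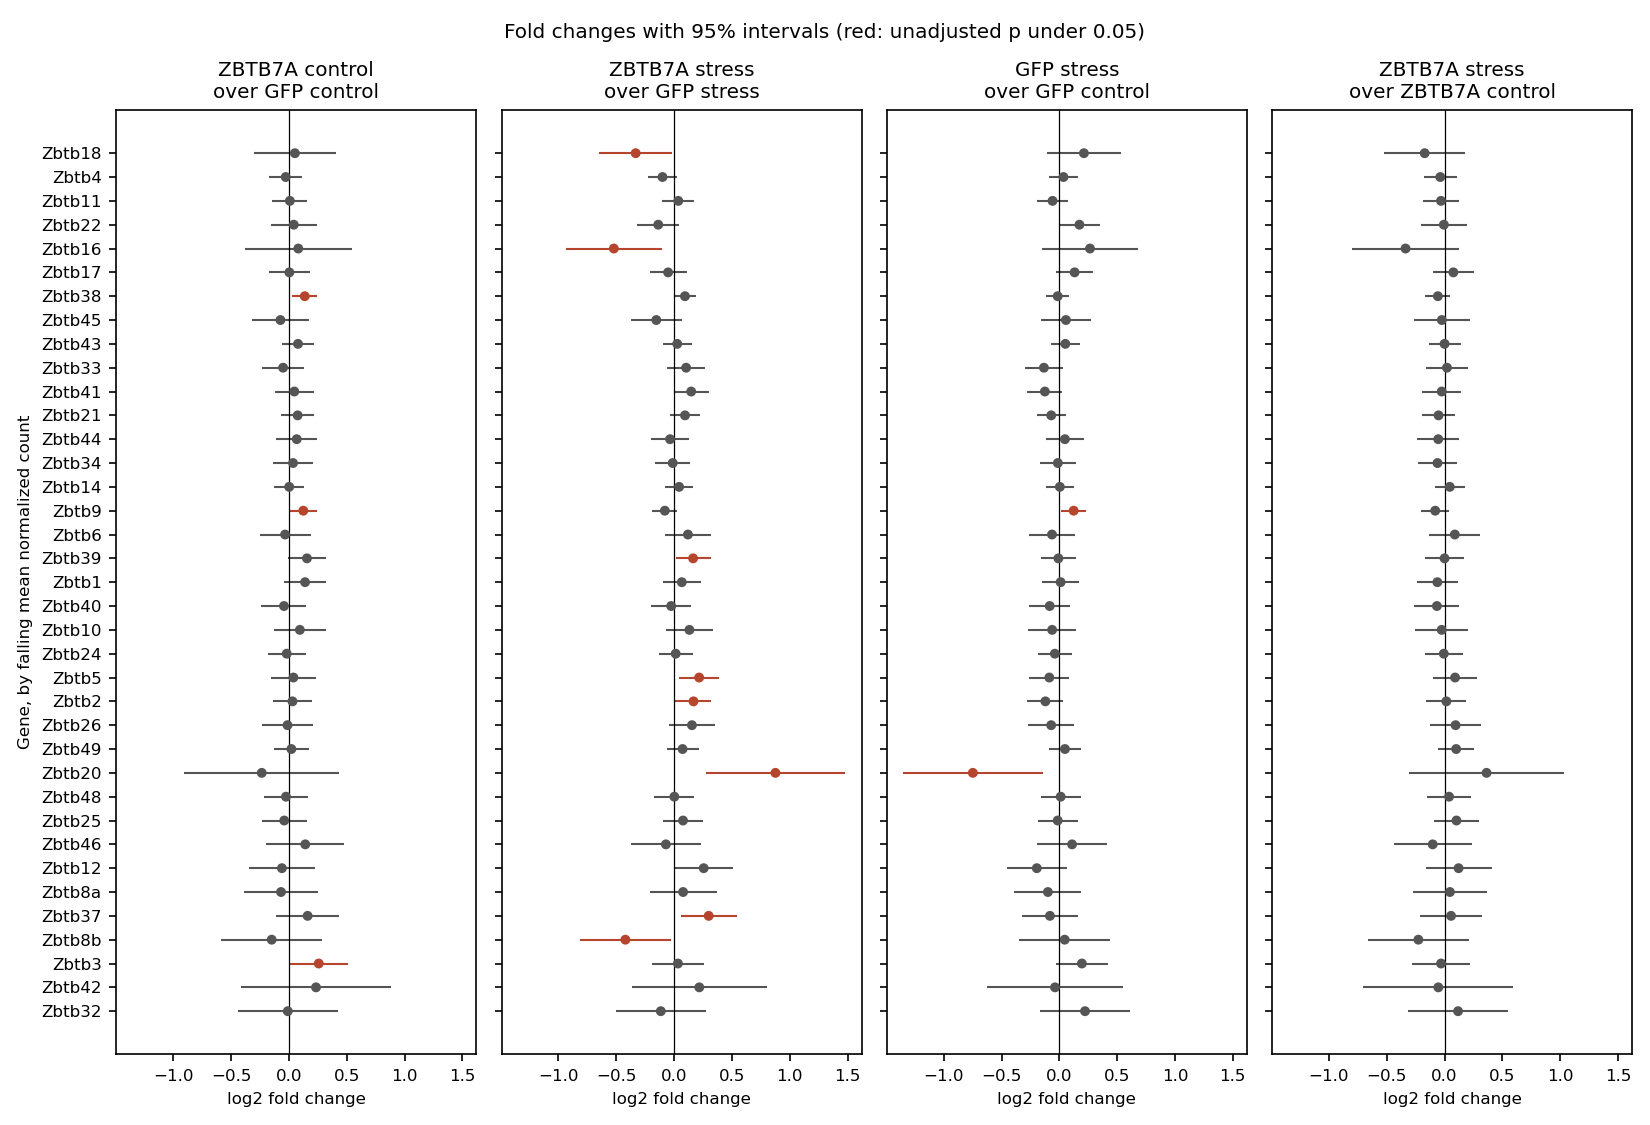
Log2 fold changes of the 37 members with 95% intervals in the 4 comparisons of 2 groups, in red where the unadjusted limma p is under 0.05. Zbtb20 has the widest values, 0.88 and -0.75, with wide intervals, and most other members lie near 0.

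By role, the members known as methyl-CpG readers showed little difference between groups. Zbtb33 (Kaiso) was 748 ± 115 and 678 ± 59.6 normalized counts in control and stress under GFP, and 717 ± 54.1 and 727 ± 42.3 under ZBTB7A. Zbtb4 was 4945 ± 533, 5059 ± 383, 4832 ± 163 and 4711 ± 245 in this order, which holds for the following members too. Both stayed within 0.15 of 0 in the 4 comparisons of 2 groups. Of the 3 readers, Zbtb38 alone had an unadjusted p under 0.05, in the contrasts given already.

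Zbtb18, Zbtb20 and Zbtb45, tied to neural and glial development, were listed with Zbtb42, the relative of Zbtb18 known from muscle. These 4 members had 0 calls at the adjusted threshold in all 6 contrasts. Zbtb45 was 756 ± 190, 768 ± 40.3, 705 ± 86.5 and 691 ± 56.7 in the 4 groups, and its widest log2 difference was -0.15 ± 0.11 (virus with stress, limma adjusted p = 0.457, exact permutation p = 0.0155). The high spread in GFP control came from GFP control 11 with 1039 and GFP control 1 with 535. Zbtb42 had means of 35.1, 34.5, 43.7 and 39.0.

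Members known from blood and immune cells were all present in this tissue. The 7 of them had 0 calls, and Zbtb16 in the virus comparison under stress was the single one with an unadjusted p under 0.05. Zbtb46, a marker of conventional dendritic cells, was 187 ± 39.1, 202 ± 40.4, 207 ± 43.3 and 189 ± 7.75, and Zbtb17, the partner of Myc, 861 ± 138, 935 ± 64.2, 855 ± 38.0 and 901 ± 51.6. The 6 members tied to telomeres, genome stability or p53 targets (Zbtb48, Zbtb10, Zbtb40, Zbtb43, Zbtb2 and Zbtb5) also had 0 calls. In the virus comparison under stress 2 of these 6, Zbtb5 and Zbtb2, had an unadjusted p under 0.05, against 16.1% of all genes.

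Of 22 genes for corepressors and partners (NCoR, SMRT, Sin3, BCoR, histone deacetylases, Cul3, Myc and Max among them), all were tested and 0 passed in any contrast. With unadjusted p under 0.05 there were 0 of 22 for the virus without stress, 3 with stress (all higher), 1 averaged over stress, 1 for stress under GFP, 0 for stress under ZBTB7A and 1 for the interaction. The shares over all genes were 1.73%, 16.1%, 6.07%, 11.2%, 1.66% and 7.42% in the same order. The smallest p was that of Sin3a, a corepressor scaffold, at 1013 ± 53.3 in GFP stress and 1147 ± 37.4 in ZBTB7A stress, a log2 difference of 0.18 ± 0.05 with a limma adjusted p of 0.183. In GFP control Sin3a was 1112 ± 27.8. Of 7 tested family members that carry other symbols (Bcl6, Bcl6b, Patz1, Hic1, Hic2, Zfp131 and Gzf1), 0 passed. Hic2 had the smallest p for the virus without stress (log2 difference 0.15 ± 0.07, limma adjusted p = 0.9999).

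Glucocorticoid-induced genes were examined beside Zbtb16, which is 1 of the 10 listed. None of the 10 passed in any contrast. For stress under GFP 2 of them had an unadjusted p under 0.05, Cdkn1a (log2 difference 0.36 ± 0.16) and Sgk1 (-0.43 ± 0.20), with limma adjusted p of 0.423 and 0.434, where 11.2% of all genes had one. Sgk1 was widely spread in GFP control, at 2097 ± 1299 (SD, n = 5) against 1403 ± 223 in GFP stress (n = 8). Tsc22d3 had the smallest p for the virus without stress, at -0.29 ± 0.12 (limma adjusted p = 0.9999).

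Library to library, some members moved with markers of other tissue. Each of 37 members was related over 23 libraries to 3 levels (striatal, choroid plexus with ependyma, and myelin), 111 relations in all, with 100000 permutations each and adjustment over the relations of all tested genes. A relation was counted where both Pearson's r and Spearman's rho had an adjusted p under 0.05. With the myelin level 8 of 37 members (21.6%) were counted, against 27.2% of all genes. With the striatal level 7 of 37 (18.9%) were, against 24.3%, and with the choroid plexus level 5 of 37 (13.5%), against 18.0%. In each case the share of members lay under the share of all genes. Their median |r| was 0.398 with the myelin level, 0.330 with the striatal and 0.409 with the choroid plexus level, against 0.354, 0.335 and 0.301 for all genes. Most of these relations were not counted in the 18 libraries left without the 5 farthest in striatal level: 1 member remained for myelin (Zbtb20), 1 for striatal (Zbtb18) and 0 for choroid plexus, against 3.14%, 3.27% and 1.28% of all genes. The levels are related among themselves, with r = 0.716 between striatal and myelin, 0.726 between choroid plexus and myelin, and -0.718 between striatal and excitatory cortical neurons.

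Zbtb20 had the closest relation to the myelin level. Over 23 libraries r was 0.876 and rho 0.853 (adjusted permutation p = 0.000384 and 0.000444, the raw p of 1e-05 being the smallest these permutations can give). Without the 2 libraries farthest from the median level r was 0.848, and within the 3 number runs it was 0.926, 0.950 and 0.816. After subtracting group means r was 0.841, and without the 5 far libraries it was 0.770 (adjusted permutation p = 0.00835). With the striatal level Zbtb20 had r = 0.822 and rho = 0.744 (adjusted permutation p = 0.000384 and 0.0022). This r was 0.766 without the 2 farthest libraries and 0.537 without the 4 of lowest striatal level. Without the 5 far libraries it was 0.455 and no longer passed (adjusted permutation p = 0.282), with a rho of 0.488. Leaving out the extremes of a level narrows its range, so this does not show that the relation rests on them. The 4 libraries lowest in Zbtb20 were the 4 lowest in striatal level, chosen for this check after the data were seen. ZBTB7A control 23, the next lowest in Zbtb20 at 121, had a striatal level of -0.18 and a myelin level of -0.70.

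Zbtb12 followed the striatal level most closely, with r = 0.828 and rho = 0.775 (adjusted permutation p = 0.000384 and 0.00133). It was 0.716 without the 4 lowest libraries and 0.905, 0.646 and 0.926 within the number runs. Without the 5 far libraries r was 0.665 and missed the threshold (adjusted permutation p = 0.0536). Its normalized counts ran from 120 in GFP stress 12 to 208 in ZBTB7A control 6, the libraries with the second lowest and the highest striatal level. Of its exon bases, 7.97% are shared with C2, a complement gene.

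Zbtb18 ran opposite to these levels. With the striatal level r was -0.746 and rho -0.785 (adjusted permutation p = 0.00116 and 0.00067). It was -0.681 without the 2 farthest libraries, -0.809 without the 4 lowest, -0.740 without the 5 far libraries (adjusted permutation p = 0.02), and -0.840, -0.727 and -0.620 within the number runs. With the myelin level r was -0.699 and rho -0.713 (adjusted permutation p = 0.00282 and 0.00366), and without the 5 far libraries r was -0.513 and did not pass (adjusted permutation p = 0.197). ZBTB7A control 6, with the lowest Zbtb18 of all libraries at 3518, also had the lowest excitatory neuron level, -0.97. Zbtb8b ran opposite too, with r = -0.688 and rho = -0.773 for the myelin level (adjusted permutation p = 0.0029 and 0.00067) and r = -0.660, -0.845 and -0.661 within the number runs. Without the 5 far libraries this r was -0.642 (adjusted permutation p = 0.074).

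**Figure D5:**
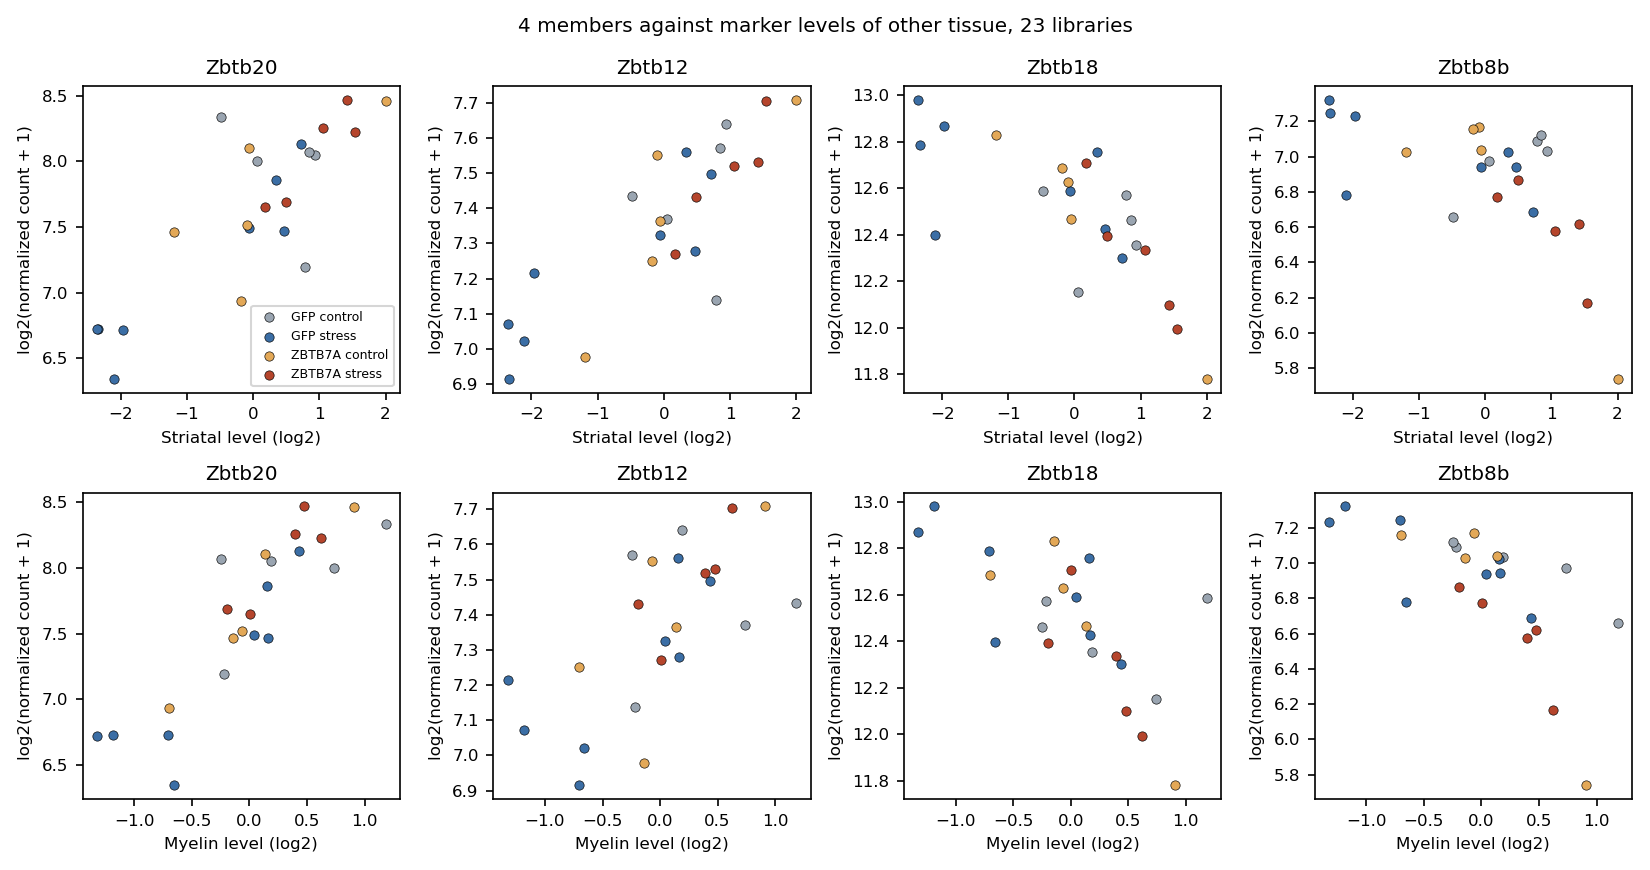
Log2 values of Zbtb20, Zbtb12, Zbtb18 and Zbtb8b against the striatal level (top) and the myelin level (bottom), with 1 point for each of 23 libraries coloured by group. Zbtb20 and Zbtb12 lie higher and Zbtb18 and Zbtb8b lower in libraries with more striatal and myelin RNA, and the 4 GFP stress libraries at the left hold low Zbtb20.

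Other relations that were counted over 23 libraries were weaker, and 0 of them passed without the 5 far libraries. With the striatal level they were those of Zbtb16 (r = -0.534), Zbtb46 (-0.545), Zbtb8b (-0.624) and Zbtb26 (0.510). With the myelin level they were Zbtb12 (0.655), Zbtb14 (-0.604), Zbtb5 (0.574), Zbtb9 (-0.555) and Zbtb46 (-0.525). With the choroid plexus level they were Zbtb20 (0.624), Zbtb3 (-0.581), Zbtb9 (-0.578), Zbtb18 (-0.568) and Zbtb5 (0.527). For Zbtb17 the choroid plexus r of -0.576 was not matched by its rho of -0.329 and was -0.177 without the 2 farthest libraries, so it rests on those. The part of these tissue levels in the group values of each member was not tested beyond the covariate fits.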

How the data were processed

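Polyadenylated RNA from Trizol and RNeasy Micro extraction went into TruSeq RNA v2 libraries, per the labels' protocols. HISAT2 2.1.0 is given in the submitters' processing notes along with featureCounts 2.0.1 and the package DESeq2 2.11.40.6. Both mm9 and mm10 are listed there, and which was used for what is not given in the sources used here. The authors deposited a table of normalized counts, used here as a signal: each value is a whole number of reads divided by 1 size factor per library. Whole reads were recovered for 100% of values within a tolerance of 0.02. The counting's strand setting is not given in the sources used here, so overlapping genes cannot be told apart. All 23 value columns were used. Of 27606 entries, 428 identical repeats were removed.

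Genes that reached 10 in 5 or more libraries were tested with limma 3.58.1 (R 4.3.3, trended and robust empirical Bayes) on log2(value + 1), in a fit of 4 group means, two-sided, with Benjamini-Hochberg adjustment over 16385 genes and a threshold of 0.05. Single members were also compared by exact permutation, and these p-values were not adjusted. Relations with tissue levels used 100000 permutations. Adjusting them over all genes, with and without the 5 far libraries, was added after seeing the data, and the count adjusted over the 111 member relations stands with the limits. Alternatives were TMM scaling, another pseudocount (5), no filter or one at a mean of 50, tests on recovered reads (edgeR 4.0.16, DESeq2 1.42.0), covariates for number run and striatal level, only the groups compared, leaving out the 5 of most extreme striatal level (GFP stress 5, 12, 20 and 21 and ZBTB7A control 6) and each library left out. The scripts were tested on simulated data. Exon lengths and overlaps came from GENCODE M21, and promoters from the RefSeq table of GRCm38.p6. Tables were made with Python 3.11.15, pandas 2.3.3, numpy 2.4.6, scipy 1.17.1 and matplotlib 3.10.9.

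Named members were those of the 4 smallest p in each comparison of 2 groups and the interaction, a panel of Zbtb16, Zbtb18, Zbtb20, Zbtb33, Zbtb4, Zbtb38, Zbtb17, Zbtb46 and Zbtb45, and the 3 with the widest ratio between libraries. From the other lists the 2 genes of smallest p could be named. Members with an unadjusted p under 0.05 and those related to tissue levels were named after their values were seen. The members and lists were chosen with earlier results of these data known.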

Additional observations from a re-analysis of the deposited data

Results flagged for a closer look

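In 148 sets of values (37 members in 4 groups), a library was looked for that lies far from the rest of its group, by Dixon's criterion at the 5% level. By chance 7.4 are due, and 7 were found. Zbtb16 was 1512 in GFP stress 5, against 1126 in the next library. Zbtb8b was 52.5 in ZBTB7A control 6, under the next lowest value of 130, and Zbtb8a was 212 in the same library, above the next highest value of 143. Zbtb26 was 285 in GFP stress 3, against 227. Zbtb11 was 1450 in GFP control 1, against 1259. Zbtb48, a telomere-binding protein, was 253 in GFP control 19, against 206. Zbtb42 was 58.6 in GFP control 10, against 32.3.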

How the results depend on the processing

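No paired analysis was possible because no title number is shared between groups. Over the 6 contrasts, 196 pairs of a contrast and an alternative were run, and members called stayed at 0 in each pair. Of 884 values of single members under alternatives, 883 kept their direction and side of the threshold, and 1 reversed: the Zbtb12 interaction, -0.035 with the striatal level as a covariate. Size was not counted, and some differences kept their sign while falling to near 0 with that covariate. Many of the 884 could not change direction, since leaving out a library of another group does not alter a log2 difference between 2 groups. The count therefore does not measure how steady the values were. DESeq2 called 46 genes for the virus with stress, 39 for stress under GFP, 7 for the virus averaged over stress, 3 for the interaction and 1 for stress under ZBTB7A, where limma and edgeR called 0, and 0 for the virus without stress. With only the groups compared limma called 2 genes for the virus with stress. Leaving out 1 library at a time gave 0 to 3 called genes for the virus with stress (3 without GFP stress 13) and 0 to 79 for the interaction (79 without ZBTB7A control 6, 2 without GFP stress 13). Counts of members at an unadjusted p under 0.05 moved more. For the virus without stress the 3 became 1 with number run as a covariate or only the groups compared, and 1 to 4 with 1 library left out (1 without GFP control 10 or ZBTB7A control 24). For the virus with stress the 8 became 4 with the striatal covariate or without the 5 far libraries, and 4 to 10 with 1 library left out (4 without ZBTB7A stress 9 or 26, 5 without GFP stress 5). For the virus averaged over stress the range was 3 to 7 (7 without GFP control 1, 6 without GFP stress 3 or ZBTB7A control 14, 5 without GFP control 10, GFP stress 21, ZBTB7A control 15 or ZBTB7A stress 7). For stress under GFP the 2 became 4 with number run, 1 without the 5 far libraries, and 1 to 9 with 1 library left out (9 without GFP control 11, 4 without GFP stress 3, 1 without GFP control 10). For stress under ZBTB7A the 0 became 5 without the 5 far libraries and 0 to 3 with 1 left out (3 without ZBTB7A control 6). For the interaction the 2 became 0 with the striatal covariate and 2 to 6 with 1 left out (6 without GFP control 11 or ZBTB7A control 6, 4 without ZBTB7A stress 17). Adjusted over the 111 member relations alone, 17 relations with tissue levels passed on r, 24 when adjusted over all genes, 2 without the 5 far libraries (2 also when adjusted over all genes), 5 without the 4 lowest in striatal level (added after seeing the data), and 7 to 26 with 1 library left out (7 without GFP stress 5 or 12, 26 without GFP control 10 or 11). The cause was not tested. Depth limits Zbtb32 and Zbtb42 most, whose means of 31.8 and 37.6 are the lowest of the members.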
